A study of Mus musculus with 8 samples.

Results

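The 10 genes described here encode factors that recognise the 3′ splice site and the branch point of introns: U2af1, U2af2, U2af1l4, Zrsr1, Zrsr2, Sf1, Sf3b1, Sf3a1, Sf3b4 and Puf60. They were taken by symbol from a table of read counts for 53465 genes, and all 10 were among the 17733 genes that passed the filter on low counts. The RNA came from Ba/F3, an immortalised mouse pro-B cell line of the C3H strain background that depends on interleukin-3 for growth. 5 libraries (replicates 4 to 8) came from cells transformed with U2AF35(S34F), and 3 libraries (replicates 1 to 3) came from parental cells, labelled U2AF35-WT. U2AF35 is the protein that U2af1 encodes, and S34F replaces a serine in its first zinc finger with phenylalanine. The labels do not give the promoter of the introduced copy, the species of its coding sequence, or whether each library is a culture or clone of its own. The p-values below therefore rest on the spread among these 8 libraries, and that spread may be technical.

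In splicing of most introns, SF1 first binds the branch point while the U2AF heterodimer binds downstream of it. The large U2AF subunit, encoded by U2af2, contacts the polypyrimidine tract, and the small subunit, encoded by U2af1, contacts the AG at the intron's end. SF1 is then displaced by the U2 snRNP, whose SF3A and SF3B subunits hold the branch point. U2af1l4 (U2AF26), Zrsr1 and Zrsr2 encode proteins related to the small subunit, and Puf60 encodes a relative of the large subunit. In human blood cancers, U2AF1, SF3B1 and ZRSR2 are recurrently mutated.

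The stretch of coding sequence around the S34F codon is shown because it is the position at which the introduced protein differs from that of the parental cells, and because U2af1l4 carries a serine codon at the matching place. Both stretches are reference sequence of the GENCODE M21 transcripts (GRCm38), 5′ to 3′, with codon 34 in capitals.
U2af1: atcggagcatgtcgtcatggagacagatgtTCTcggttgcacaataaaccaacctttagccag
U2af1l4: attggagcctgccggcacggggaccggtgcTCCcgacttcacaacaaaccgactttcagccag
Codon 34 of U2af1 lies at chr17:31655009-31655011 on the minus strand, in a coding exon, and 4 of 5 annotated coding transcripts of U2af1 hold the stretch. The codon of U2af1l4 lies at chr7:30563587-30563589 on the plus strand, also in a coding exon. Over the 63 bases U2af1l4 differs from U2af1 at 17 positions, 1 of them inside the codon (T33C, counted from 1 at the 5′ end of the stretch). Gene counts carry no base calls, so the mutant and wild-type codons were not distinguished in the values below, nor were the introduced and endogenous copies.

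Transformed 7 was the shallowest library with 36122062 counts and parental 1 the deepest with 50305573, so that 3 counts, which bound a gene listed at 0, equal 0.0596 to 0.0831 CPM (counts scaled to library size). CPM values were scaled by TMM factors, which correct for composition, and are given as mean ± SD with n = 5 transformed and n = 3 parental libraries. The median correlation of transformed 4 and transformed 7 with their own group was 0.975 and 0.976, against 0.984 to 0.987 for the other 3 transformed libraries, while parental libraries had 0.992 to 0.993. Of the pro-B markers, Cd79a (48.1 ± 4.70 CPM in transformed and 54.6 ± 4.42 CPM in parental libraries) and Cd79b (13.9 ± 4.63 CPM in transformed and 13.8 ± 2.31 CPM in parental libraries) were expressed. The other 8 of 10 had at most 10 counts in any library, and Rag1 and Il7r were at 0. Summed markers of haematopoietic cells ran from 1455 to 3758 CPM in transformed and from 3568 to 4749 CPM in parental libraries. Most of that sum was Csf2rb, with 1903 ± 929 CPM in transformed and 3638 ± 585.5 CPM in parental libraries. In the same order Ptprc had 369 ± 79.4 and 423 ± 46.2 CPM. Spi1 had 51.7 ± 7.45 and 64.5 ± 4.04 CPM, and Il3ra had 50.8 ± 12.4 and 51.0 ± 3.55 CPM. Summed mast cell and basophil markers ran from 6.69 to 149 CPM in transformed and from 29.6 to 82.7 CPM in parental libraries, with Kit at 0. T cell, stromal and epithelial lists summed to at most 1.07 CPM in any library. The part of these marker levels in the results below was not tested, and in bulk RNA fewer cells of a type and less RNA per cell cannot be told apart.

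None of the 10 genes changed at an adjusted p under 0.05 (edgeR quasi-likelihood test, Benjamini-Hochberg over all tested genes), where 3.01% of tested genes did, 0.908% higher and 2.10% lower in transformed cells. U2af1 had the largest fold change of the 10, and was the 1 gene of the 10 with an unadjusted p under 0.05, which 22.2% of tested genes had. DESeq2 called U2af1 (adjusted p = 0.0421) and no other of the 10, where it called 4.54% of tested genes higher, and limma-voom called 0 of the 10, against 3.32% of tested genes. By log2 fold change 6 genes were positive and 4 negative with a median of 0.047, and over all tested genes the median was 0.0165 with 52.3% positive. In 0 of the 10 did the 5 transformed libraries all lie on one side of the 3 parental ones, which they did for 17.8% of tested genes.

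**Figure D1:**
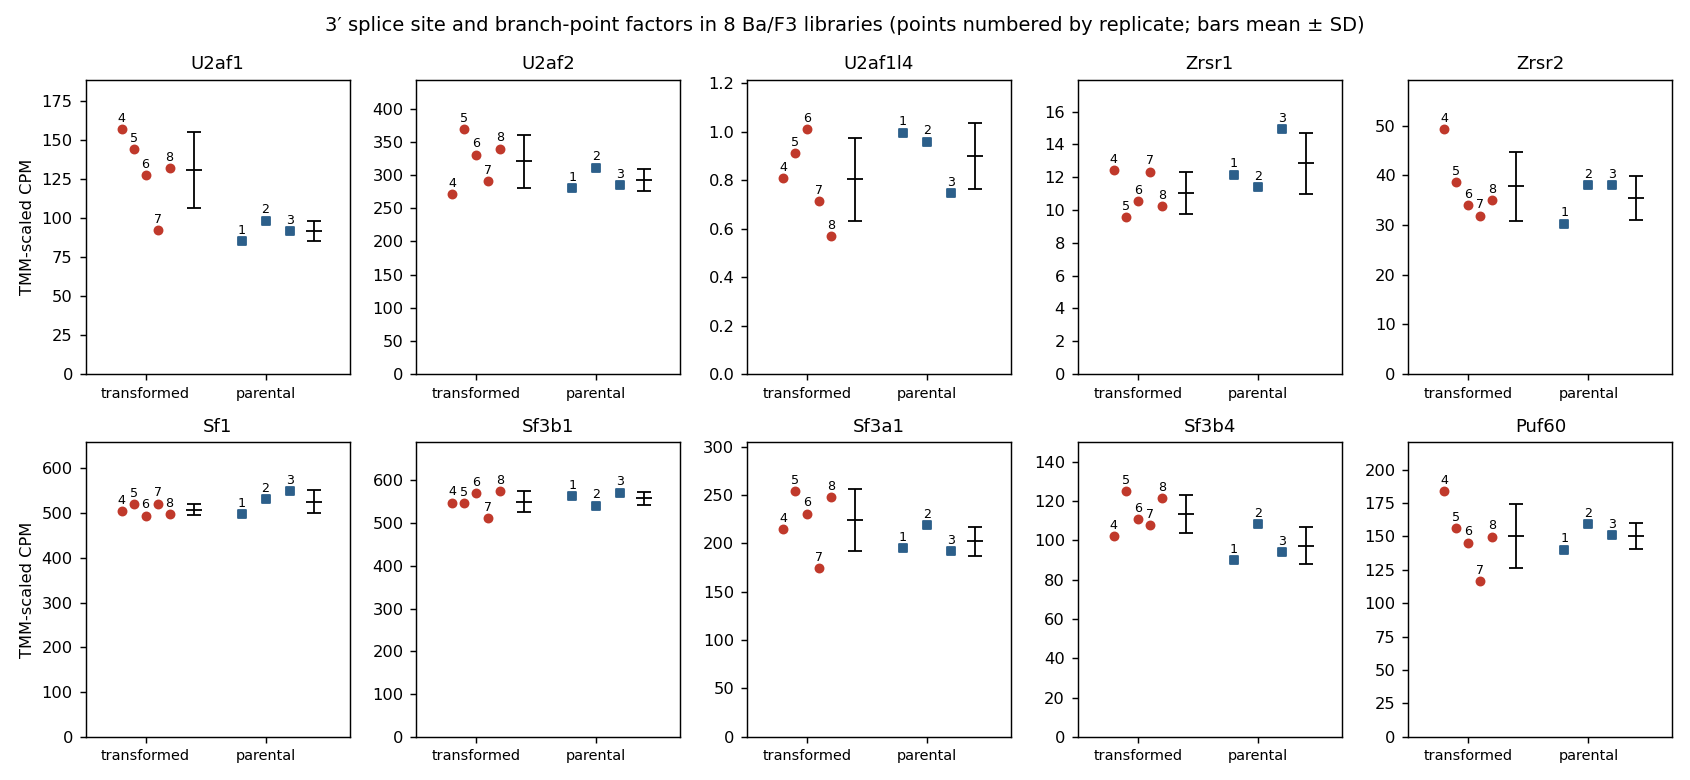
TMM-scaled CPM of each gene in the 5 transformed (red circles) and 3 parental libraries (blue squares), numbered by replicate, with bars for mean ± SD and axes from 0. U2af1 was above all parental libraries in 4 of 5 transformed libraries, while Sf1 and Sf3b1 lay between 494 and 574 CPM throughout.

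U2af1 (ENSMUSG00000061613, chr17:31647081-31658892, minus strand) had 157, 144, 128, 92.0 and 132 CPM in transformed 4 to 8, against 85.3, 98.2 and 91.6 CPM in parental 1 to 3. Transformed 4, 5, 6 and 8 were above all parental libraries, and transformed 7 lay within their range. The means were 131 ± 24.4 CPM in transformed and 91.7 ± 6.47 CPM in parental cells, a log2 fold change of 0.51 with a 95% interval of 0.15 to 0.87 (SE 0.16, edgeR adjusted p = 0.108). Without transformed 7 the log2 fold change was 0.61 (edgeR adjusted p = 0.0141), where 2.87% of tested genes were called higher. The value thus changed its side of the threshold with 1 library. The adjusted p ran from 8.88e-04 to 0.9996 over the alternatives, the highest with lane 7 alone, which holds 1 parental library.

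Of the 50-base words in the U2af1 transcripts, 21.7% also occur in transcripts of other genes, and 20.9% occur in the processed pseudogene Gm10232. A processed pseudogene is a copy of a spliced transcript reinserted in the genome, so reads of these words could be counted for either locus, and the sources used here do not give the authors' handling of reads with several matches. Gm10232 had 100, 64.4, 63.0, 41.1 and 65.5 CPM in transformed 4 to 8, against 36.03, 42.8 and 38.5 CPM in parental 1 to 3. As with U2af1, transformed 7 was within the parental range and the other 4 transformed libraries were above it (log2 fold change 0.77, SE 0.24, edgeR adjusted p = 0.108). Gm18959, a second pseudogene, had 12.9 ± 5.11 CPM in transformed and 7.03 ± 0.449 CPM in parental cells (edgeR adjusted p = 0.115, log2 fold change 0.88, SE 0.28). All 5 transformed libraries were above the parental ones for Gm18959, as for 8.07% of all tested genes.

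Relative to the U2af1 count, the Gm10232 count was 63.8, 44.7, 49.4, 44.6 and 49.7% in transformed 4 to 8, against 42.2, 43.5 and 42.0% in parental 1 to 3. The share was highest in transformed 4. The groups did not overlap, but the nearest values were 44.6% in transformed 7 and 43.5% in parental 2, from 1438 and 2140 Gm10232 counts. How often such shares separate the groups for other gene pairs was not counted. For Gm18959 the share was 9.76 ± 2.42% in transformed and 7.67 ± 0.239% in parental libraries. A further processed pseudogene that holds 14.0% of the U2af1 words was not analysed here. With the counts of Gm10232 and Gm18959 added to those of U2af1, the sum was 279, 219, 203, 141 and 209 CPM in transformed 4 to 8, against 128, 148 and 137 CPM in parental 1 to 3. On that sum the log2 fold change was 0.61 (SE 0.19, edgeR adjusted p = 0.104).

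**Figure D2:**
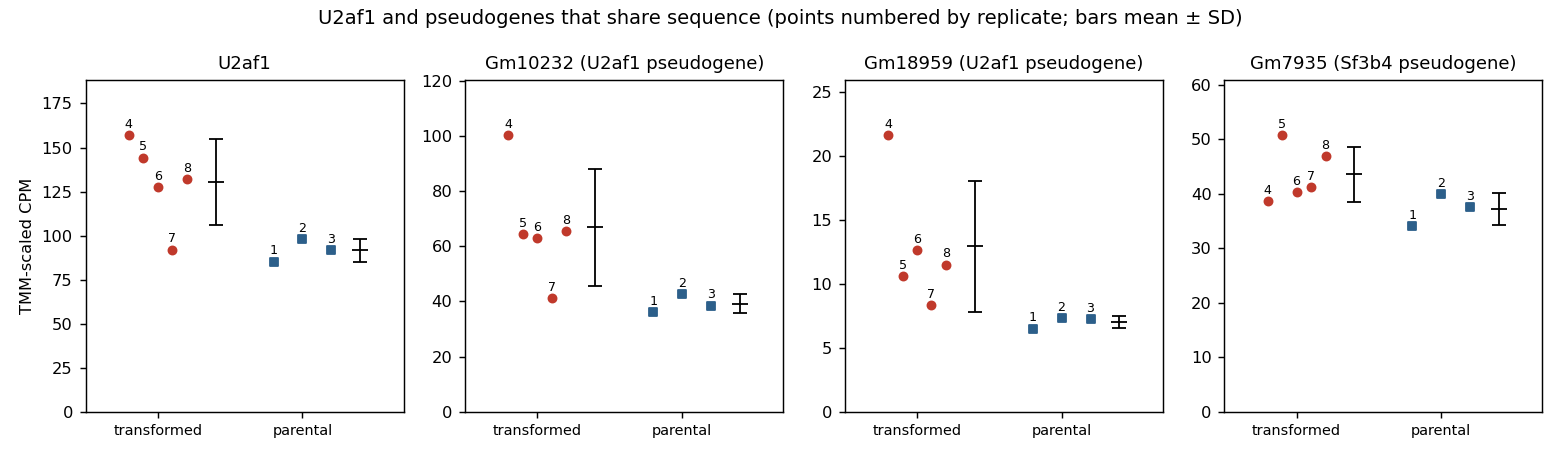
TMM-scaled CPM of U2af1, its pseudogenes Gm10232 and Gm18959, and the Sf3b4 pseudogene Gm7935 in the 5 transformed (red circles) and 3 parental libraries (blue squares), numbered by replicate, with bars for mean ± SD and axes from 0. Transformed 4 is the highest and transformed 7 the lowest transformed library for U2af1, Gm10232 and Gm18959, while for Gm7935 transformed 5 is the highest and transformed 4 the lowest.

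U2af2, the partner of U2af1 in the heterodimer (chr7:5062143-5079938, plus strand), had 271, 370, 331, 290 and 340 CPM in transformed 4 to 8, against 280, 311 and 285 CPM in parental 1 to 3. Transformed 5, 6 and 8 were above the parental libraries and transformed 4 was below them. The log2 fold change was 0.13 with a 95% interval of -0.12 to 0.39 (edgeR adjusted p = 0.525). The transformed library with the most U2af1 was thus the one with the least U2af2. Of the 50-base words of U2af2, 10.9% also occur in Gm5846, whose count was 11.4 ± 0.536% of the U2af2 count in transformed and 11.5 ± 0.641% in parental libraries.

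The ratio of U2af1 to U2af2 counts within a library does not depend on library scaling. It was 0.579, 0.390, 0.386, 0.317 and 0.388 in transformed 4 to 8, against 0.305, 0.316 and 0.322 in parental 1 to 3. Transformed 7 lay within the parental range and the other 4 above it. On the log2 scale the mean was -1.31 ± 0.317 in transformed and -1.67 ± 0.041 in parental libraries, a difference of 0.363 (exact permutation test, 2-sided, p = 0.0893, 0.125 after adjustment over 3 ratios). The smallest p that the 56 assignments allow is 0.0179.

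U2af1l4 is a paralog of U2af1, with 73.9% identity over 660 aligned coding bases, where Zrsr1 had 65.5%, and it had the lowest level of the 10. It had 0.808, 0.913, 1.01, 0.714 and 0.571 CPM in transformed 4 to 8, against 0.997, 0.959 and 0.745 CPM in parental 1 to 3. These values rest on 25 to 46 counts in transformed and 34 to 51 counts in parental libraries, and the groups overlapped (log2 fold change -0.16, 95% interval -0.67 to 0.34, edgeR adjusted p = 0.719). The ratio of U2af1l4 to U2af1 was lower than in every parental library in 5 of 5 transformed libraries. Its log2 mean was -7.27 ± 0.367 in transformed and -6.61 ± 0.251 in parental libraries. The nearest log2 values were -6.918 in transformed 6 and -6.862 in parental 3, from 46 and 34 U2af1l4 counts. How often ratios of other gene pairs separate the groups was not counted. The difference of -0.66 had an exact permutation p of 0.0357, 2-sided, and 0.107 after adjustment over 3 ratios. U2af1l4 shares 1086 exonic bases, 65.6% of its merged exons, with Gm49396 on the same strand, so its count is uncertain. Gm49396 itself was below all parental libraries in 5 of 5 transformed libraries (log2 fold change -0.37, edgeR adjusted p = 0.252). Of all tested genes, 9.69% lay wholly below the parental libraries.

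Zrsr1 and Zrsr2 encode relatives of the small subunit. In human cells ZRSR2 acts on the 3′ splice site of the minor class of introns, removed by the U12-type spliceosome. Their coding sequences are 80.6% identical over 1279 aligned bases. Zrsr1 (chr11:22972005-22976496, plus strand) had 12.4, 9.57, 10.6, 12.3 and 10.2 CPM in transformed 4 to 8, against 12.2, 11.4 and 15.0 CPM in parental 1 to 3. Transformed 5, 6 and 8 were below all parental libraries (log2 fold change -0.22, 95% interval -0.53 to 0.092, edgeR adjusted p = 0.385). Zrsr1 overlaps exons of Commd1 on the opposite strand by 412 bases, and Commd1 had 32.0 ± 6.03 CPM in transformed and 23.6 ± 2.61 CPM in parental cells (edgeR adjusted p = 0.168). The sources used here do not give the strand setting of the counting, so reads of the overlap cannot be assigned.

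Zrsr2 (chrX:163935443-163958661, minus strand) had 49.4, 38.6, 34.1, 31.9 and 35.0 CPM in transformed 4 to 8, against 30.3, 38.0 and 38.0 CPM in parental 1 to 3. Transformed 4 stood well above the rest, and the other 4 overlapped the parental range or lay just above it. The log2 fold change of 0.093 (95% interval -0.26 to 0.45, edgeR adjusted p = 0.775) became -0.023 without transformed 4. The log2 ratio of Zrsr1 to Zrsr2 was -1.76 ± 0.261 in transformed and -1.46 ± 0.233 in parental libraries (difference -0.30, exact permutation p = 0.125, 2-sided, and 0.125 adjusted over 3 ratios).

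Sf1, which binds the branch point before the U2 snRNP does (chr19:6363690-6378030, plus strand), had 505, 521, 494, 521 and 498 CPM in transformed 4 to 8, against 498, 531 and 548 CPM in parental 1 to 3. It was among the steadiest of the 10, with a coefficient of variation of 2.51% in transformed and 4.84% in parental libraries, where the median tested gene had 18.3% and 9.36%. Its log2 fold change was -0.050 (95% interval -0.21 to 0.11, edgeR adjusted p = 0.733). The 511 tested genes of chromosome 19, on which Sf1 lies, had a median log2 fold change of -0.34, with 19.4% positive. The genes of chromosome 7, which holds U2af2 and U2af1l4, had a median of 0.17 with 69.3% positive, and on the chromosomes of the other 7 genes the median was between -0.0091 and 0.076.

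Sf3b1, the large subunit of SF3B that clamps the branch point helix (chr1:54985169-55027481, minus strand), had 548, 546, 569, 511 and 574 CPM in transformed 4 to 8, against 562, 541 and 571 CPM in parental 1 to 3. The groups overlapped almost wholly (log2 fold change -0.022, 95% interval -0.19 to 0.15, edgeR adjusted p = 0.895). The 95% intervals of Sf1 and Sf3b1 were the narrowest of the 10.

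Sf3a1, a subunit of SF3A (chr11:4160350-4182541, plus strand), had 215, 254, 231, 175 and 248 CPM in transformed 4 to 8, against 195, 219 and 192 CPM in parental 1 to 3. Transformed 5, 6 and 8 were above the parental libraries and transformed 7 was below them (log2 fold change 0.15, 95% interval -0.14 to 0.44, edgeR adjusted p = 0.525). Sf3b4, an RNA-binding subunit of SF3B (chr3:96172332-96177564, plus strand), had 102, 125, 111, 108 and 121 CPM in transformed 4 to 8, against 89.8, 108 and 93.9 CPM in parental 1 to 3. The same 3 transformed libraries were above all parental ones (log2 fold change 0.22, 95% interval -0.0059 to 0.45, edgeR adjusted p = 0.237). Of the 50-base words of Sf3b4, 43.6% also occur in the processed pseudogene Gm7935, which had 43.6 ± 5.07 CPM in transformed and 37.2 ± 3.02 CPM in parental cells (log2 fold change 0.23, edgeR adjusted p = 0.285). The Gm7935 count was 38.4 ± 1.56% of the Sf3b4 count in transformed and 38.3 ± 1.56% in parental libraries. An antisense gene that overlaps 85 exonic bases of Sf3b4, Gm17690, had 0.569 ± 0.281 CPM in transformed and 1.44 ± 0.174 CPM in parental cells (log2 fold change -1.32, edgeR adjusted p = 0.0806). All 5 transformed libraries were below the parental ones for Gm17690, as for 9.69% of all tested genes.

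Puf60, which binds polypyrimidine tracts and can act beside U2AF (chr15:76070182-76080924, minus strand), had 184, 156, 145, 117 and 150 CPM in transformed 4 to 8, against 140, 160 and 151 CPM in parental 1 to 3. Transformed 4 was above and transformed 7 below the parental range. The means of 150 ± 24.0 CPM in transformed and 150 ± 9.67 CPM in parental cells gave a log2 fold change of 0.00021 (95% interval -0.30 to 0.30, edgeR adjusted p = 0.9995).

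The fold changes depended on which transformed libraries were set against the parental ones. Within lane 6, which holds transformed 5 and 8 and parental 1 and 3, 4 of the 10 genes were called higher, against 9.60% of tested genes. These were U2af1 at a log2 fold change of 0.66 (edgeR adjusted p = 0.00600), Sf3b4 at 0.44 (0.0116), Sf3a1 at 0.39 (0.0153) and U2af2 at 0.34 (0.0271). With transformed 4 and 7 left out, the same 4 genes were called, against 12.8% of tested genes, with U2af1 at 0.55 (edgeR adjusted p = 8.88e-04), Sf3b4 at 0.29 (0.0254), Sf3a1 at 0.27 (0.0202) and U2af2 at 0.25 (0.0268). These settings share transformed 5 and 8 and parental 1 and 3, so they are not independent. Transformed 4 and 7 had the lowest correlations with their own group in these same data, so leaving them out narrows that group's spread. Without them edgeR called 28.9% of tested genes in either direction, against 3.01% with all libraries. Zrsr1 had the most negative log2 fold change of the 10 in both, -0.44 (edgeR adjusted p = 0.0683) and -0.34 (0.0544). Within lane 7 edgeR called 0 of the 10 and 0 of 18636 genes (0.00%), of which 507 had an unadjusted p under 0.05, and there the log2 fold changes of U2af2, Sf3a1 and Sf3b4 were -0.071, -0.089 and -0.022.

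**Figure D3:**
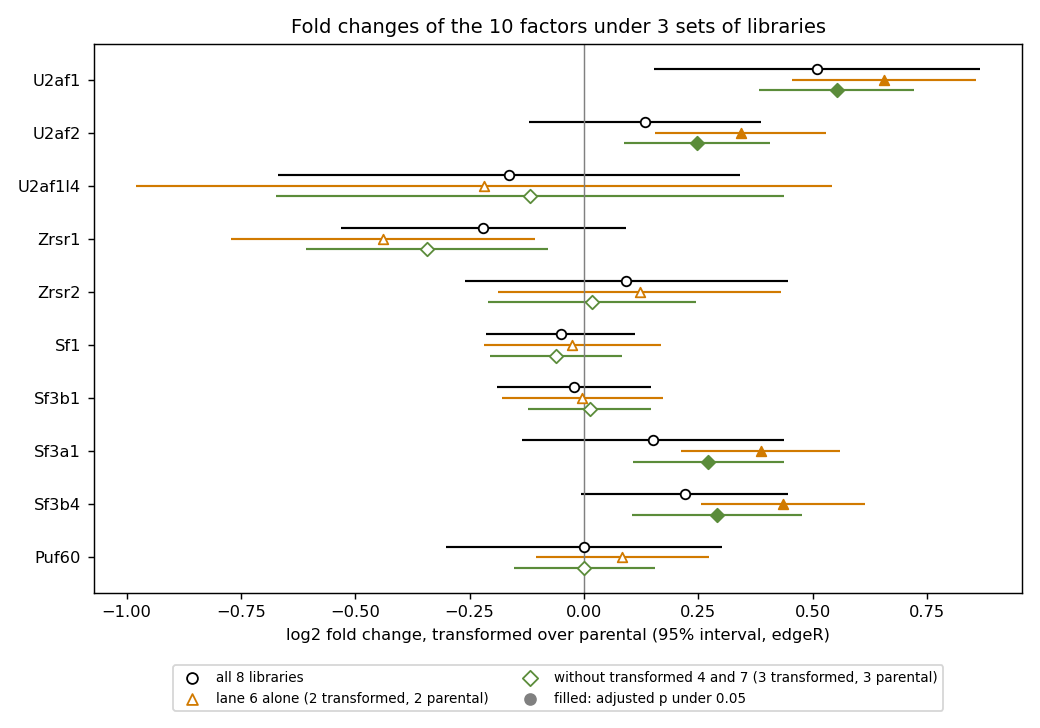
Log2 fold change, transformed over parental, of each gene with its 95% interval from all 8 libraries (circles), lane 6 alone (triangles) and without transformed 4 and 7 (diamonds), filled where the edgeR adjusted p is under 0.05. With all libraries the interval of U2af1 lies above 0 and those of the other 9 genes span 0, and the filled symbols belong to U2af1, U2af2, Sf3a1 and Sf3b4.

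Among the transformed libraries, the highest or lowest value of several of these factors fell in transformed 4, 5 or 7. How often each library was the extreme over all tested genes was not counted. The lowest median correlations with their own group were those of transformed 4 and 7 (0.975 and 0.976). Whether the pattern is particular to these factors was therefore not tested. Transformed 7 was the lowest of the 5 for U2af1, Zrsr2, Sf3b1, Sf3a1 and Puf60. Transformed 4 was the highest for U2af1, Zrsr1, Zrsr2 and Puf60 and the lowest for U2af2 and Sf3b4. Transformed 5 was the highest for U2af2, Sf3a1 and Sf3b4. The coefficient of variation of U2af1 was 18.7% in transformed and 7.05% in parental libraries, close to the median tested gene in the transformed group (18.3%) and below it in the parental group (9.36%).

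Levels of different genes compare only per length, and were set on CPM per kilobase of merged exons. Sf1 (81.8 ± 2.05 in transformed and 84.7 ± 4.10 in parental libraries) and U2af2 (77.9 ± 9.59 in transformed and 71.0 ± 4.09 in parental libraries) were the highest. Sf3b4 followed in transformed libraries with 52.4 ± 4.41 CPM per kilobase, and in parental libraries it had 45.0 ± 4.43, below Sf3b1. U2af1 had 50.3 ± 9.40 in transformed and 35.3 ± 2.49 in parental libraries, and Sf3b1 had 48.3 ± 2.17 and 49.1 ± 1.36 in the same order. Sf3a1 (36.5 ± 5.16 in transformed and 32.9 ± 2.42 in parental libraries) and Puf60 (31.7 ± 5.06 in transformed and 31.7 ± 2.04 in parental libraries) came next. Zrsr2 had 5.25 ± 0.961 CPM per kilobase in transformed and 4.93 ± 0.622 in parental libraries, Zrsr1 had 2.45 ± 0.287 and 2.86 ± 0.415, and U2af1l4 had 0.485 ± 0.104 and 0.544 ± 0.0819. In parental cells the neighbours Sf3b1 and Sf3b4, U2af1 and Sf3a1, and Sf3a1 and Puf60 differed by less than their spread. These levels leave out reads counted for genes that share sequence with a factor. With such counts added, parental means were 138 CPM for U2af1 (91.7 without), 134 for Sf3b4 (97.3) and 4.88 for U2af1l4 (0.901). The order of the levels thus depends on where such reads were counted. Per kilobase of the longest transcript, U2af2 stood first with a mean of 128 CPM over the 8 libraries, ahead of Sf1 with 118 and U2af1 with 111.

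**Figure D4:**
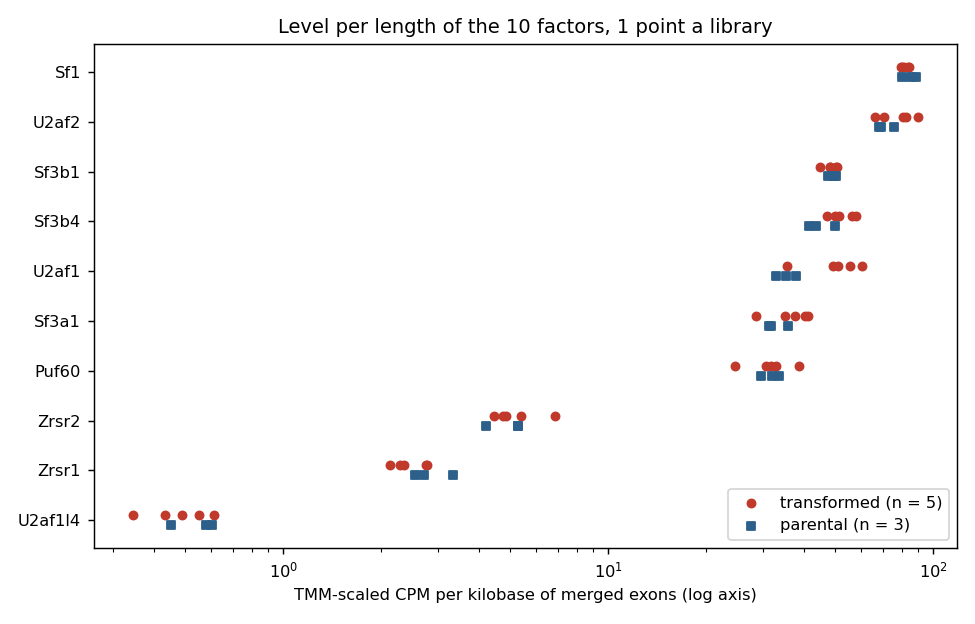
CPM per kilobase of merged exons (log axis) of the 10 genes in each transformed (red) and parental (blue) library, ordered by level. The 7 higher genes lie between 24.6 and 89.9 CPM per kilobase, and Zrsr2, Zrsr1 and U2af1l4 lie below 7.

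Other spliceosome genes were counted from 4 lists. Of 28 further U2 snRNP and 3′ splice site factors, edgeR and limma-voom called 0. By edgeR 5 (17.9%) had an unadjusted p under 0.05, against 22.2% of all tested genes. DESeq2 called 1 lower (Rbm5), where it called 5.72% of all tested genes lower. Their log2 fold changes ran from -0.44 to 0.25 with 17 positive, 11 negative and a median of 0.084. Rbm5, an RNA-binding regulator of 3′ splice site choice, had 176 ± 19.0 CPM in transformed and 239 ± 25.0 CPM in parental cells (edgeR adjusted p = 0.0641, log2 fold change -0.44, SE 0.11). Sf3b2, the SF3B subunit that contacts Sf3b4, had 434 ± 65.8 CPM in transformed and 570 ± 8.42 CPM in parental cells (log2 fold change -0.39, edgeR adjusted p = 0.120). Ddx39b, the UAP56 helicase that joins U2AF at the 3′ splice site, had 558 ± 26.7 CPM in transformed and 486 ± 14.0 CPM in parental cells (log2 fold change 0.20, edgeR adjusted p = 0.170).

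Of 10 U1 snRNP and 5′ splice site factors, 1 rose and 0 fell by edgeR, where 0.908% of all tested genes rose and 2.10% fell. By log2 fold change 9 were positive and the median was 0.067. The gene that rose was Luc7l, a U1-associated factor, with 147 ± 13.3 CPM in transformed and 105 ± 4.01 CPM in parental cells (edgeR adjusted p = 0.0365, log2 fold change 0.48, SE 0.095). The edgeR adjusted p of Luc7l was over 0.05 without any 1 of the parental libraries (0.121 to 0.194), without transformed 5 (0.0871), 6 (0.0959) or 8 (0.0841), with lane as a covariate (0.0826) and in lane 7 alone (0.9996), at log2 fold changes of 0.42 to 0.52. Snrnp70, the U1 subunit that binds the U1 RNA, had 709 ± 135 CPM in transformed and 484 ± 36.5 CPM in parental cells (edgeR adjusted p = 0.0775, log2 fold change 0.55, SE 0.15). Snrpa, another U1 subunit, had 143 ± 5.12 CPM in transformed and 120 ± 8.45 CPM in parental cells (log2 fold change 0.25, edgeR adjusted p = 0.108). DESeq2 called these 3 higher, against 4.54% of all tested genes, and limma-voom called Luc7l alone, against 0.902% called higher. By edgeR 3 of the 10 had an unadjusted p under 0.05, against 22.2% of all tested genes.

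Among the Sm core proteins, 7 of 8 were tested (Snrpn had no counts), and edgeR, DESeq2 and limma-voom called 0. By edgeR 0 of the 7 had an unadjusted p under 0.05, against 22.2% of all tested genes. The median log2 fold change was 0.17 with 5 positive and 2 negative. Of 6 proteins of the minor spliceosome, edgeR and limma-voom called 0. By edgeR 2 (33.3%) had an unadjusted p under 0.05, against 22.2% of all tested genes. DESeq2 called 2 higher (Rnpc3 and Snrnp48), where it called 4.54% of all tested genes higher. The median log2 fold change was 0.23 with 5 positive. Rnpc3, which binds the U12 RNA, had 27.9 ± 2.08 CPM in transformed and 22.0 ± 0.786 CPM in parental cells (log2 fold change 0.34, edgeR adjusted p = 0.0831). Snrnp48 had 110 ± 9.25 CPM in transformed and 83.4 ± 12.5 CPM in parental cells (log2 fold change 0.40, edgeR adjusted p = 0.0898).

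As for the 10 factors, the counts called in these lists by edgeR moved with the libraries in the fit. In lane 6 alone, where 20.4% of all tested genes were called in either direction, 11 of the 28 U2 and 3′ splice site factors, 2 of the 10 U1 factors, 3 of the 7 Sm proteins (Snrpd1, Snrpd2 and Snrpd3) and 1 of the 6 minor spliceosome proteins were called. Without transformed 4 and 7, where 28.9% of all tested genes were called, the counts were 14, 3, 3 and 3 in the same order. Without transformed 4 alone they were 2, 2, 0 and 3, against 15.5% of tested genes, and without transformed 7 alone they were 1, 2, 1 and 0, against 7.62%. With lane as a covariate, where 0.530% of tested genes were called, all 4 counts were 0. They were also 0 without any 1 of transformed 5, 6 or 8 or parental 1, 2 or 3. In those fits 0.144% to 0.487% of tested genes were called, so 0 calls in lists of this size is near that share.

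**Figure D5:**
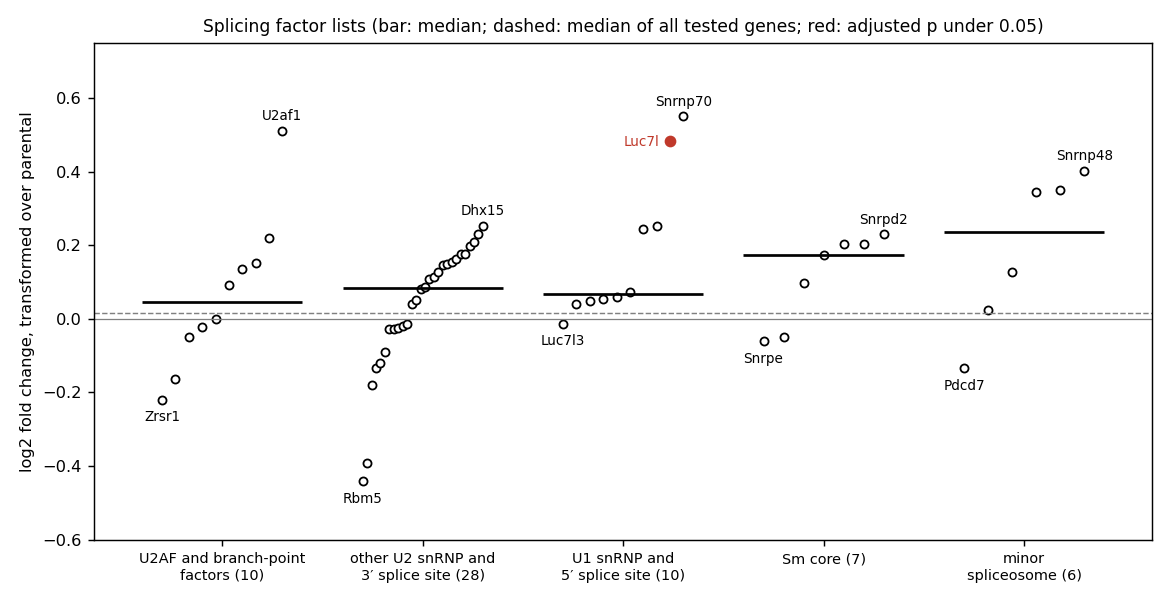
Log2 fold change, transformed over parental, of each tested gene in the 10 factors and 4 spliceosome lists, with the median of each and the median of all tested genes (0.0165). The 1 gene past the threshold, Luc7l at 0.48, is drawn in red.

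The genes whose log2 CPM followed U2af1 most closely over the 8 libraries, among 9142 with an average log2 CPM of at least 3, were Mtmr9 (Pearson's r 0.992), Rps15 (0.985), Lhpp (0.978), Rrp7a (0.974) and Ecd (0.971). These values describe 8 points that share the difference between 2 groups. Genes with predicted-gene, RIKEN, clone or bare Ensembl names were left out before ranking, and with them the pseudogenes Gm10232 and Gm18959. Of the other factors, Sf3a1 was nearest to U2af1 with r of 0.75, at rank 564, and U2af2 had r of 0.45, at rank 2091. Sf1 and Zrsr1 had negative r, of -0.40 and -0.57, at ranks 7049 and 7918 of the 9142, so many genes had values as low.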

How the data were processed

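PolyA RNA of 8 Ba/F3 libraries (Trizol, Illumina TruSeq, per the labels' protocols) was analysed from the deposited table of raw read counts per Ensembl gene, with 0 columns outside the 8 libraries. Builds mm10 and GRCm38.p5, the aligner STAR 2.5.3a and the counter featureCounts 1.5.3 are named in the submitters' processing notes. Annotation release, strand setting and handling of reads with several matches could not be read from the sources used here. All bear on genes with pseudogenes or overlapping neighbours. Symbols and coordinates came from GENCODE M21 (GRCm38), and 105 identifiers without a match there held 0.0212% of counts.

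Groups came from the sample titles and lanes from the library descriptions. The 10 factors, the lists and the rule for named genes were chosen with earlier results of these data known. Counts went into edgeR 4.0.16 under R 4.3.3, with its filterByExpr filter, TMM scaling and the robust quasi-likelihood test. P-values were 2-sided and adjusted by Benjamini-Hochberg over 17733 genes, with a threshold of 0.05. The fit set 5 transformed against 3 parental libraries. The common biological coefficient of variation was 0.23. Log2 CPM and ratios used a prior count of 2. Named genes were the 10 factors, in each list those past the threshold and the 3 with the smallest p, the 5 genes most like U2af1, and genes overlapping a factor. The pseudogenes were added after their values were seen. Shared sequence was measured as the percentage of 50-base words of a gene's transcripts found in those of another gene.

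Alternatives were DESeq2 1.42.0, limma-voom (limma 3.58.1), upper-quartile or RLE scaling, testing without a filter, requiring CPM 1 in 3 libraries, lane as a covariate, lane 6 or lane 7 alone, leaving out each library in turn, transformed 4 and 7 left out, and, chosen after seeing the data, the counts of pseudogenes and same-strand overlapping genes that share at least 2% of words added to a factor's own. Opposite-strand genes (Commd1, Psenen) and 1 U2af1 pseudogene not analysed here were not added. Transformed 4 and 7 were the transformed libraries with the lowest median correlation with their own group in these data. On simulated counts for these 17733 genes in the same design, edgeR called 22.4% of the 67 genes given a 1.5-fold change, 53.7% of the 67 with 2-fold and 87.9% of the 66 with 4-fold, and 7 of 116 calls were of unchanged genes. The simulation gave both groups the same dispersion per gene, while the median coefficient of variation in the data was 18.3% in transformed and 9.36% in parental libraries. Changed genes were drawn from all tested genes, so these rates are not those of the 10 factors. The depth floor of 3 counts covers counting error only. The 95% intervals of the fold changes come from the edgeR fit and include the spread among libraries.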

Additional observations from a re-analysis of the deposited data

Results flagged for a closer look

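The gap between the most extreme transformed library and its nearest neighbour, as a share of the range of the 5, was above Dixon's 95% critical value of 0.71 in 4 of 41 groups of values checked. Chance flags about 1 in 20 groups. None of the 10 factors was among the 4. Snrnp70 had 940 CPM in transformed 7, where the next highest transformed library had 694 CPM. Snrpd2, an Sm core protein, had 88.7 CPM in transformed 7, where the next lowest had 115 CPM. Rrp7a, which followed U2af1 closely, had 69.8 CPM in transformed 7, where the next lowest had 89.2 CPM. Snrnp35, a minor spliceosome protein, had 6.04 CPM in transformed 4, where the next lowest had 9.97 CPM. The extreme library was thus transformed 7 for Snrnp70, Snrpd2 and Rrp7a and transformed 4 for Snrnp35.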

How the results depend on the processing

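No paired analysis was possible because the groups share no replicate numbers. Of 189 values of the 10 factors under 19 alternatives, 162 kept their direction and side of the threshold, 17 changed direction and 10 passed the threshold. The count of called genes was 533 with all libraries, 1818 with DESeq2, 94 with lane as a covariate, 3565 in lane 6, 0 in lane 7, 5042 without transformed 4 and 7, and 26 (without parental 3) to 2728 (without transformed 4) when 1 library was left out. The cause was not tested. The count of the 10 factors called was 0 with all libraries, where 3.01% of tested genes were called, and 1 with DESeq2 (10.3%). It was 4 in lane 6 (20.4%) and 4 without transformed 4 and 7 (28.9%). When 1 library was left out it was 0 to 1, where 0.144% to 15.5% of tested genes were called. The fit without transformed 4, at 15.5%, called 0 of the 10, and the fit without transformed 7, at 7.62%, called 1. The log2 fold change of U2af1 was 0.51 with DESeq2, 0.66 in lane 6, 0.55 without transformed 4 and 7, and 0.43 to 0.61 when 1 library was left out. In lane 7 the log2 fold change of U2af1 was lowest, at 0.35. U2af2 had 0.34 in lane 6 and 0.25 without transformed 4 and 7, Sf3a1 had 0.39 and 0.27, and Sf3b4 had 0.44 and 0.29. In lane 7, which holds 1 parental library assumed to vary like the transformed ones, directions reversed for U2af2 (-0.071), Zrsr1 (0.039), Sf3a1 (-0.089), Sf3b4 (-0.022), Puf60 (-0.11), the Sm core gene Snrpd1 (-0.048), Gm5846 (-0.016), Gm7935 (-0.0030), Gm22027, a snoRNA gene within Sf3b4 (0.53), and the ratio of Zrsr1 to Zrsr2 (0.052). Puf60, near 0, had -0.010 with limma-voom, -0.0015 with upper-quartile factors, -0.0084 with no filter, -0.0044 with lane as a covariate and -0.083 to 0.079 when 1 library was left out. Sf3b1 had 0.013 without transformed 4 and 7 and -0.037 to 0.0034 when 1 library was left out, and Zrsr2 had -0.023 to 0.15. Gm22027 had 0.033 with lane as a covariate and -0.31 to 0.23 when 1 library was left out. U2af1l4 gave no value with the filter at CPM 1 in 3 libraries. Per kilobase of the longest transcript, mean levels were 128 for U2af2, 118 for Sf1, 111 for U2af1, 89.2 for Sf3b1, 79.9 for Puf60, 56.04 for Sf3b4, 43.9 for Sf3a1, 9.55 for Zrsr2 and 0.950 CPM for U2af1l4. Of the 5 genes most like U2af1, Spearman's rho kept 1. Depth limits U2af1l4, with 25 to 51 counts a library.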
